A study of Homo sapiens with 6 samples.

Results

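The regions described here carried an E2F7 peak in each of 3 states of IMR90, a line of fibroblasts from human fetal lung. Peaks of the 3 lists that overlapped by at least 1 bp on chromosomes 1 to 22 and X were merged, and a merged region was kept when it held at least 1 peak of every list. Of 54554 merged regions, 1191 met this rule, which is 2.18% (95% exact binomial interval 2.06% to 2.31%). They held 1510 of 43643 peaks of senescent cells with RB knockdown, 1229 of 10225 peaks of quiescent cells and 1248 of 9466 peaks of growing cells. The members were chosen by the deposited peak calls of these same libraries, so that share is a description and no test was made on it. Positions are on hg18.

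Chromatin was immunoprecipitated with 10 µg of an E2F7 antibody and sequenced. The RB knockdown cells were infected with Ras and an RB hairpin and are labelled senescent, and the ER-Ras vector was induced with tamoxifen 4 days before collection. The quiescent and growing cells are listed with no treatment, although the same protocol text, with the ER-Ras vector, hairpins and tamoxifen, stands beside them too. Each state was 1 library, with 23379790 (RB knockdown), 25212239 (quiescent) and 22628990 (growing) tags after the duplicate limit, so no value carries a replicate error. The labels do not say how quiescence was brought about, nor which hairpin sequence or how many clones were used, and the level of RB and of E2F7 in these cells cannot be read from peak lists.

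E2F7 is an atypical E2F factor, which binds DNA without the dimerization partner of the other family members and represses genes of the cell cycle and DNA replication. RB, the retinoblastoma protein, binds the activating E2F factors and holds their target genes down in quiescent and senescent cells. Ras-induced senescence is a lasting arrest of the cell cycle set off by an active Ras oncogene. Genes are not named below, because no annotation on hg18 was used here, and no sequence is printed for the same reason.

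Most regions of the set held 1 peak of each state. The median length of the set was above that of every other class of merged region. A region that joins peaks of more lists is longer by the rule itself, so nothing is read from that order. The merged length had a median of 1923 bp, against 619 to 1326 bp in the classes found in fewer lists and 700.0 bp over all merged regions, with quartiles at 1434 and 2814 bp and a range from 615 to 24521 bp. Exactly 1 peak of each list made up 909 regions (76.3%, 73.8% to 78.7%). More than 1 RB knockdown peak lay in 258 regions, against 36 regions with more than 1 quiescent peak and 52 with more than 1 growing peak. In 209 regions several RB knockdown peaks stood beside a single quiescent and a single growing peak. The caller used a fragment length of 125 bp for the RB knockdown library, against 200 bp for the quiescent and growing libraries, and the part of this setting in the split peaks was not tested. All intervals here are at 95% and cover counting error only, and neighbouring regions are not independent.

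The peaks of the 3 states shared a core in nearly every region. At least 1 bp was covered by all 3 lists in 1162 regions, and the other 29 were joined by a chain of pairwise overlaps. The shared core had a median of 913 bp, or 50.9% of the region. RB knockdown peaks covered a median of 67.0% of the region, quiescent peaks 88.8% and growing peaks 80.6%. Among the 909 regions with 1 peak of each list, the RB knockdown peak lay wholly inside the quiescent peak in 539 (59.3%) and inside the growing peak in 423 (46.5%). The growing peak lay inside the quiescent peak in 253 of them. Every summit fell inside both other peaks in 736 (81.0%, 78.3% to 83.5%). The rule asks for overlapping peaks, which bears on the shared core and on where summits fall. These values are therefore a description.

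Few regions lay at the edge of the overlap rule, with 5 resting on an overlap under 100 bp. The overlap on which a region's place in the set depended had a median of 954 bp. It was 2 bp in the region on chromosome 5 at 39403825 to 39408370, 8 bp on chromosome 2 at 17835346 to 17837100 and 27 bp on chromosome 2 at 86116219 to 86119627. In these 3 regions no base was covered by all 3 lists, and the growing peaks held 50, 16 and 32 tags. Just outside the rule, an RB knockdown and quiescent region on chromosome 9 at 93578361 to 93579911 ended 6 bp before a growing peak of 38 tags. A like region on chromosome 2 at 27092070 to 27092913 was 13 bp from a growing peak of 33 tags. The third, on chromosome 16 at 2029079 to 2030277, was 20 bp from a growing peak of 18 tags. Of 5557 regions with peaks of 2 lists, 19 had a peak of the missing list within 100 bp. More regions lay near the caller's threshold, which corresponds to a -10*log10 p of 50. In the set, scores under 55 numbered 102 for growing, 62 for quiescent and 19 for RB knockdown. The share under 55 over the whole lists is not given here, so nothing is read from these counts about the set. Growing peaks had a median score of 85.2 in the set and 60.1 over the whole list. These medians were 127.3 and 71.5 for quiescent, and 179.8 and 72.5 for RB knockdown. The growing peaks nearest to the threshold lay at 50, 50.1 and 50.19. They were on chromosome 22 at 34993422 to 34995263, on chromosome 10 at 102310835 to 102312292 and again at 17835346 on chromosome 2.

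Peaks inside the set held more tags and were wider than the rest of their own list. The median RB knockdown peak in a common region had 74 tags and a width of 1009.5 bp, against 37 tags and 642 bp in the other RB knockdown peaks. For quiescent peaks the medians were 89 tags and 1563 bp in the set, against 47 tags and 1054 bp outside it. Growing peaks had 64 tags and 1408 bp in the set, against 21 tags and 672 bp outside it. Width bears on whether a peak meets the rule, so these differences are a description and were not tested. Median fold enrichment over the local background, the authors' value for each peak, was 9.46 in the set and 7.08 outside it for RB knockdown, 7.17 and 6.26 for quiescent, and 5.77 and 6.56 for growing. Against all other growing peaks together, the growing list thus went the other way in fold enrichment than in tags and width. This did not hold for every class. The median was 6.56 in growing only regions and 6.445 in those of quiescent and growing alone. In the regions of RB knockdown and growing alone it was 5.47, below that of the set.

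**Figure D1:**
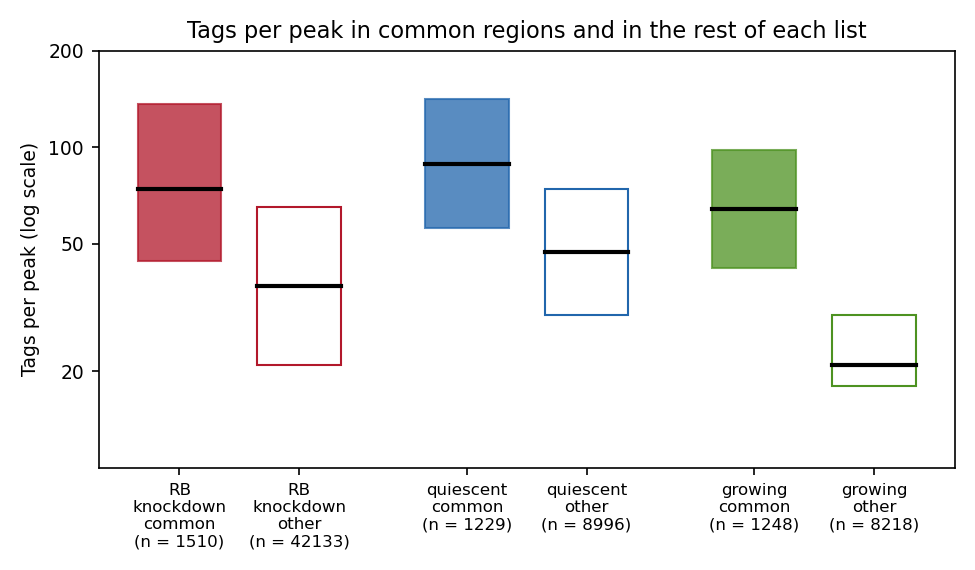
Tags per peak (log scale) for each list, with filled boxes for peaks in common regions and open boxes for the rest of that list. Boxes run from the lower to the upper quartile and the black bar is the median, which was 74 against 37 tags for RB knockdown, 89 against 47 for quiescent and 64 against 21 for growing.

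The set made up a larger share of the tags in the shorter lists. The same regions were counted in every list, so list length bears on this order and nothing is read from it. The set held 8.65% of all tags in RB knockdown peaks, 22.96% of those in quiescent peaks and 31.8% of those in growing peaks. As a share of the whole filtered library this was 0.863% (95% Wilson interval 0.860% to 0.867%) for RB knockdown, 0.630% (0.627% to 0.633%) for quiescent and 0.474% (0.471% to 0.477%) for growing. Among the 100 peaks of highest -10*log10 p in each list, 72 of the RB knockdown list, 86 of the quiescent list and 95 of the growing list lay in common regions. Among the 1000 highest these numbers were 385, 445 and 543. Over the whole lists, 3.46% of RB knockdown, 12.0% of quiescent and 13.2% of growing peaks lay in common regions. Peaks of high score were not matched for width, which bears on the rule, so these counts are a description.

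Not every member was a secure call in every list. By the caller's false discovery rate (FDR), at most 5% was met by the peak with most tags in 1189 regions for RB knockdown, in 610 for quiescent (51.2%) and in 143 for growing (12.01%). Over the whole lists the same FDR was met by 98.0% of peaks in RB knockdown, 17.8% in quiescent and 1.83% in growing cells. The rule and the FDR come from the same calls, so nothing is read from the higher shares in the set. All 3 lists met it together in 118 regions (9.91%, 8.27% to 11.7%). The median FDR of the growing peak with most tags was 69.9%, against 4.47% for quiescent and 0.03% for RB knockdown, and every statement on the full set carries that limit of the growing list.

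Summed over its peaks, a region held a median of 94 tags in RB knockdown cells (13 to 5250), 90 tags in quiescent cells (18 to 2422) and 65 tags in growing cells (15 to 1817). Per 1000000 filtered tags these medians were 4.02, 3.57 and 2.87. The tags were concentrated in few regions. The 10% of regions with most tags in a list held 44.6% of the set's tags for RB knockdown, 36.8% for quiescent and 33.6% for growing. The 10 regions leading by summed rank of -10*log10 p alone held 13.6%, 9.28% and 8.63%. Ranks of tags ran alike between states, with Spearman's rho of 0.77 between RB knockdown and quiescent, 0.75 between RB knockdown and growing and 0.72 between quiescent and growing (n = 1191 regions). The regions share their length and the control library between states, and tags alone had a rho of 0.68 to 0.73 with region length, so these values are a description.

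Tag density divides by width, and it was taken as tags per kb of a list's peaks in the region per 1000000 filtered tags. Its median was 3.03 in RB knockdown cells (quartiles 2.42 and 4.15), 2.09 in quiescent cells (1.70 and 2.67) and 1.92 in growing cells (1.64 and 2.30). RB knockdown had the highest density of the 3 states in 1083 regions, quiescent in 80 and growing in 28. The full order RB knockdown, quiescent, growing was found in 689 regions (57.9%), and quiescent density was the lowest in 418. Per region, the median ratio was 1.59 for RB knockdown over growing, 1.43 for RB knockdown over quiescent and 1.08 for quiescent over growing. Without the division by peak width the ratios of tags per 1000000 had medians of 1.401, 1.12 and 1.23, so the gap between RB knockdown and quiescent was smaller and that between quiescent and growing larger on this scale. The near-uniform lead of RB knockdown was also lost. By tags per 1000000, RB knockdown was highest in 635 regions (53.3%), quiescent in 391 (32.8%) and growing in 165 (13.9%), and RB knockdown lay below growing in 313 regions and below quiescent in 484. RB knockdown peaks covered a median of 1191 bp per region, quiescent peaks 1578 bp and growing peaks 1428 bp. The RB knockdown library is also the one called with the shorter fragment length, so the setting and the library cannot be told apart.

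A tag density at least 2 times as high was found in 273 regions for RB knockdown over growing, or 22.9% of the set (20.6% to 25.4%). Over all 2177 regions with a peak of both lists it was 17.5%. For RB knockdown over quiescent it was 159 regions (13.4%), where the background over 5565 regions was 9.49%. For quiescent over growing it was 34 regions (2.85%), where the background over 1388 regions was 2.52%. Without the division by width, a ratio of at least 2 was found in 309 regions (25.9%) for RB knockdown over growing, where the background was 19.5%. On that scale it was 148 regions (12.4%) for RB knockdown over quiescent, with a background of 5.61%, and 176 regions (14.8%) for quiescent over growing, with a background of 13.9%. The count for quiescent over growing thus rested most on the choice of scale. No common region had an RB knockdown density of at most 1/2 of the growing one, while 41 did by tags per 1000000. These backgrounds hold the common regions themselves. By density, the regions of a pair alone stood at 10.9% for RB knockdown over growing and 8.44% for RB knockdown over quiescent, and at 1 of 197 regions for quiescent over growing.

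**Figure D2:**
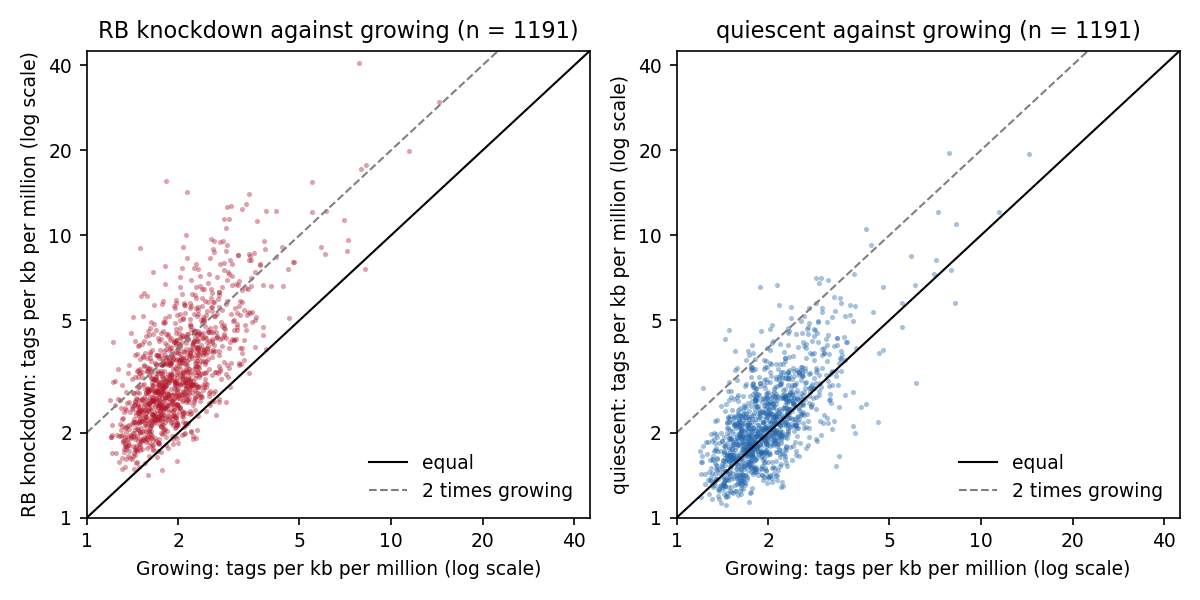
Tag density of each common region (tags per kb of peak per 1000000 filtered tags, both axes log scale), RB knockdown against growing on the left and quiescent against growing on the right. Points are 1191 regions, the solid line marks equal density and the dashed line 2 times the growing density. On the left 1158 regions lie above the solid line and 273 reach the dashed line, and on the right 769 and 34.

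The regions with the largest density ratio between RB knockdown and growing, among those whose lists all met an FDR of 5%, were of different kinds. First was chromosome 12, 123958916 to 123962613, with a density of 40.7 in RB knockdown, 19.6 in quiescent and 7.85 in growing cells, a ratio of 5.19 over growing. Here the 3 states stood in steps. The second, on chromosome 6 at 20508751 to 20510591, held 398 tags in RB knockdown cells (95% exact Poisson interval 360 to 439), 116 in quiescent cells (95.9 to 139) and 122 in growing cells (101 to 146). The third, on chromosome 22 at 34125071 to 34126857, held 472 tags in RB knockdown (430 to 517), 105 in quiescent (85.9 to 127) and 138 in growing cells (116 to 163). In both of these RB knockdown stood apart from the quiescent and growing libraries. The quiescent and growing intervals overlapped in raw tags, which are not scaled for library depth, so no likeness of these libraries is read from them. Fold enrichment in these regions was 92.4 and 86.5 in RB knockdown, 14.3 and 15.9 in quiescent, and 11.8 and 18.1 in growing cells. Summits of the 3 lists lay within 34 bp in the region on chromosome 6 and within 212 bp in that on chromosome 22.

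At the other end of the same ranking RB knockdown and growing had nearly equal densities. On chromosome 7 at 104437856 to 104445009 the density was 3.96 in RB knockdown, 4.00 in quiescent and 3.88 in growing cells. The RB knockdown list there held 3 peaks over 6937 bp and the other lists 1 peak each, over 2854 bp (quiescent) and 2471 bp (growing), so equal density went with unequal tags (643, 288 and 217). On chromosome 19 at 52420387 to 52425456 the densities were 2.76, 2.56 and 2.60 in the same order of states. On chromosome 11 at 2869635 to 2870852 a region of 1218 bp held 73 tags in RB knockdown, 101 in quiescent and 72 in growing cells. Its densities were 2.82, 3.38 and 2.65, so quiescent stood above both other states there.

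A few regions departed by at least 2 times from the density order RB knockdown, quiescent, growing. These were picked after their values had been seen. RB knockdown density was at most 1/2 of quiescent density in 1 region, on chromosome 16 at 88588000 to 88590511, with 102 tags in RB knockdown, 414 in quiescent and 102 in growing cells. Quiescent density was at most 1/2 of growing density in 4 regions. The first was on chromosome 15 at 46409805 to 46412616, with 267 tags in RB knockdown, 56 in quiescent and 130 in growing cells. On chromosome 2 at 173926478 to 173929052 there were 351, 71 and 262 tags in these states, and the growing peak had 51.97-fold enrichment, the highest growing value in the set. The others lay on chromosome 12 at 263879 to 265590 (90, 67 and 132 tags) and on chromosome 6 at 72169367 to 72171530 (206, 140 and 173 tags). In these 4 regions RB knockdown and growing were both higher in density than quiescent. Their summits lay within 101 bp except on chromosome 12, where they were 645 bp apart. In the region on chromosome 16 the summits were spread over 1194 bp, and the growing peak had an FDR of 75.5%. The quiescent peak had an FDR of 34.98% on chromosome 15 and 14.2% on chromosome 12.

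Summits of different states often coincided. The distance between the RB knockdown and quiescent summits had a median of 60 bp and was at most 200 bp in 875 regions (73.5%, 70.9% to 76.0%). The quiescent and growing summits had a median distance of 134 bp, within 200 bp in 720 regions (60.5%). For RB knockdown and growing the median was 153 bp, within 200 bp in 668 regions (56.1%). All 3 summits lay within 50 bp in 130 regions, within 200 bp in 551 (46.3%, 43.4% to 49.1%) and within 1000 bp in 1009. There was no common shift of one list against another, with median offsets along the chromosome of 2 bp for RB knockdown minus growing, 3 bp for RB knockdown minus quiescent and 5 bp for quiescent minus growing. Where a list had several peaks in a region, its peak with most tags gave the summit. The rule asks for overlapping peaks, which bears on these distances, so they are a description.

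**Figure D3:**
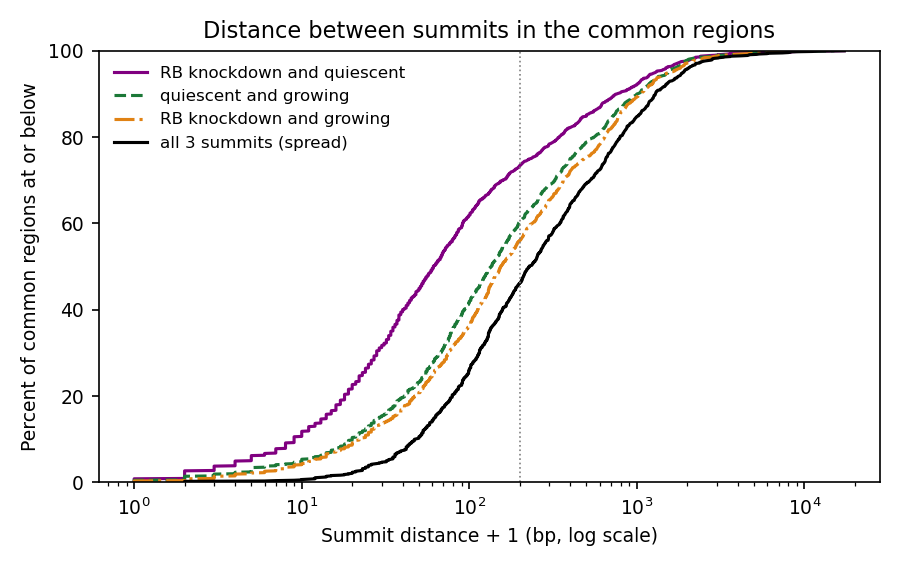
Cumulative percent of the 1191 common regions (vertical axis) with summits at or below a given distance (horizontal axis, bp plus 1, log scale), for each pair of lists and for the spread of all 3 summits. The dotted line marks 200 bp, where the curves stand at 73.5% for RB knockdown and quiescent, 60.5% for quiescent and growing, 56.1% for RB knockdown and growing, and 46.3% for all 3.

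The tightest regions of single peaks that all met an FDR of 5% were mostly narrow. On chromosome 19 at 54556040 to 54557225 the summits lay within 11 bp, with 118 tags in RB knockdown (97.7 to 141), 132 in quiescent (110 to 157) and 84 in growing cells (67.0 to 104). Fold enrichment there was 33.5, 25.2 and 16.3. On chromosome 17 at 28173372 to 28174419 the spread was 19 bp, and quiescent cells stood highest with 159 tags (135 to 186), against 72 in RB knockdown (56.3 to 90.7) and 77 in growing cells (60.8 to 96.2). Another on chromosome 17, at 35484752 to 35486481, had 264, 319 and 229 tags in the order RB knockdown, quiescent, growing and a spread of 23 bp. On chromosome 10 at 103900906 to 103903457 the spread was also 23 bp, with 899 tags in RB knockdown (841 to 960), 182 in quiescent (157 to 210) and 318 in growing cells (284 to 355). The remaining pair were on chromosome 8, at 70764681 to 70765723 with a spread of 17 bp and at 128816309 to 128818387 with a spread of 19 bp. A shared summit thus stood beside unlike balances of raw tags, with quiescent cells highest in some regions and RB knockdown highest in others. Raw tags are not scaled for library depth or peak width. By density, quiescent cells stood highest only at 28173372 on chromosome 17 (6.07, against 3.63 in RB knockdown and 3.28 in growing cells). In the other tight regions RB knockdown density was the highest.

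Regions tall in every state were likewise compact. Ranked by the lowest of the 3 fold enrichments, the first was on chromosome 1 at 209497861 to 209499733, with 22.8-fold enrichment in RB knockdown, 22.7-fold in quiescent and 21.7-fold in growing cells. On chromosome 9 at 129587958 to 129589798 the values were 23.1, 22.97 and 21.5, and the growing peak held 121 tags, more than the 82 in RB knockdown and the 102 in quiescent cells. By density RB knockdown stood highest there, at 3.52, against 2.94 in quiescent and 3.17 in growing cells. The third, on chromosome 9 at 138542061 to 138543255, had 54.5-fold in RB knockdown, 19.8-fold in quiescent and 20.3-fold in growing cells. The fourth, on chromosome 1 at 47422166 to 47423271, had 62.8-fold, 17.1-fold and 18.5-fold in these states. The fifth was the tight region on chromosome 19 at 54556040. The regions of the list ran from 1106 to 1873 bp in length, and each held 1 peak per state.

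Longer regions had less coincident summits. Split by length into 4 groups of 297 or 298 regions, the shortest group (615 to 1434 bp) had a median summit spread of 134 bp, and 66.1% (60.4% to 71.5%) of it had all summits within 200 bp. In the longest group (2816 to 24521 bp) the median was 831.5 bp and the share 27.9% (22.8% to 33.3%). Spread is bounded by region length, so the measures are not independent. A single peak of each list made up 98.99% of the shortest group and 37.9% of the longest. Tag density varied less, with a median of 2.76 in the shortest and 3.40 in the longest group for RB knockdown, 1.86 and 2.26 for quiescent, and 1.75 and 2.03 for growing. The ratio of RB knockdown to growing density had a median of 1.54 in the shortest and 1.63 in the longest group.

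**Figure D4:**
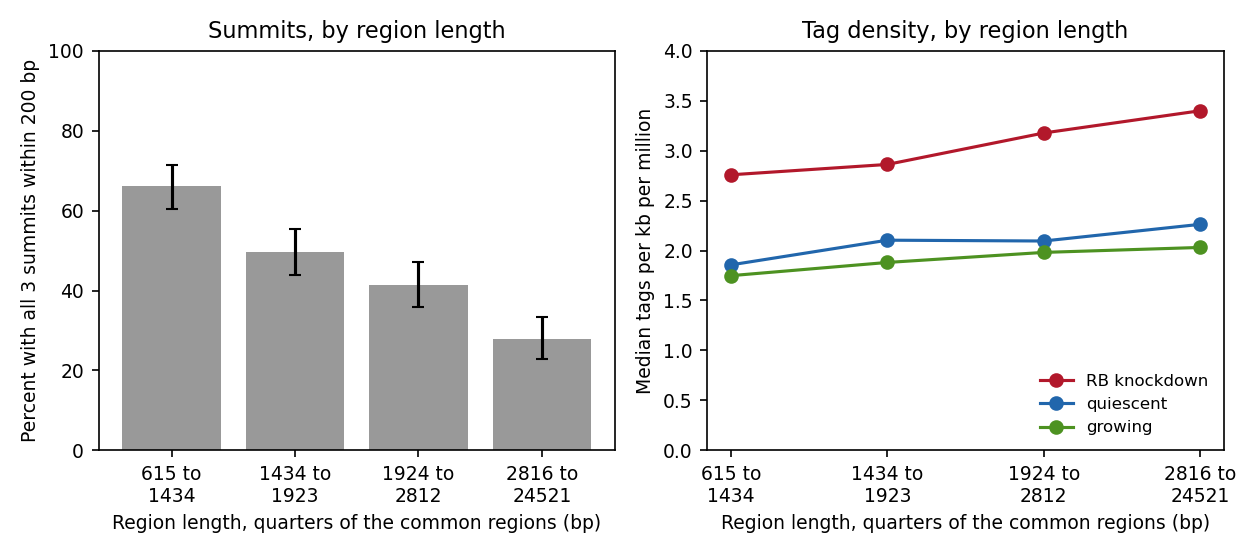
Common regions in 4 groups of nearly equal number by their length (bp). Left, percent of regions with all 3 summits within 200 bp, with 95% exact binomial intervals as bars, 66.1% in the shortest and 27.9% in the longest group. Right, median tag density (tags per kb per 1000000) of RB knockdown, quiescent and growing cells, which runs from 2.76 to 3.40, from 1.86 to 2.26 and from 1.75 to 2.03 over the same groups.

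A split into 4 groups by RB knockdown density gave another order. In the group of lowest density 27.5% (22.5% to 33.0%) of regions had all summits within 200 bp, against 68.5% (62.8% to 73.7%) in the group of highest density. The median spread was 365.5 bp in the lowest and 115 bp in the highest group. Median region length was 1640 bp in the lowest and 2004.5 bp in the highest group, so the densest group was longer in the median than the least dense. By growing tags there was little order, with 45.6% of regions in the lowest group of growing tags and 43.6% in the highest having all summits within 200 bp.

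The longest and shortest regions show the range of form. The longest, on chromosome 2 at 151028454 to 151052974, spanned 24521 bp and held 8 peaks, with 2522 tags in RB knockdown, 1691 in quiescent and 743 in growing cells. Its summits were spread over 17271 bp, and its fold enrichment was low, at 8.48, 5.94 and 5.89 in the peaks with most tags. The next in length were on chromosome 11 at 62036796 to 62056228, with 18474 bp covered by all 3 lists, and on chromosome 16 at 87025112 to 87043876, with 13647 bp. The most peaks in 1 region were 10, on chromosome 19 at 44588364 to 44597376 with 5 RB knockdown, 3 quiescent and 2 growing peaks, whose main summits still lay within 92 bp. The region on chromosome 17 at 44011028 to 44023435 held 9 peaks, of which 2 were RB knockdown, 3 quiescent and 4 growing. The shortest region, on chromosome 4 at 70331000 to 70331614, was 615 bp long, with 34 tags in RB knockdown, 50 in quiescent and 30 in growing cells and a spread of 9 bp. The second shortest, 640 bp on chromosome 12 at 20595305 to 20595944, had many tags (158, 177 and 89) beside a fold enrichment of 9.66, 9.48 and 4.25. The third, 671 bp on chromosome 19 at 51956379 to 51957049, held 30, 20 and 27 tags.

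The same pair of lists was set side by side inside and outside the set. RB knockdown and quiescent summits were 60 bp apart in the median common region and 52 bp apart in the 4374 regions of that pair alone, with 73.5% (70.9% to 76.0%) and 81.9% (80.7% to 83.0%) within 200 bp. Common regions, which join 1 more list, were longer, with a median of 1923 bp against 1306 bp. RB knockdown and growing summits were 153 bp apart in common regions and 216 bp apart in the 986 regions of that pair alone, with 56.1% (53.2% to 58.9%) and 47.97% (44.8% to 51.1%) within 200 bp. The median density ratio of RB knockdown over quiescent was nearly the same in both kinds of region, 1.43 and 1.42. Over growing it was 1.59 in common regions and 1.398 in regions of that pair alone. For quiescent over growing the ratio was 1.08 in common regions and 0.947 in the 197 regions of that pair alone. These differences were not tested, since regions of 1 library are not replicates.

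Common regions lay unevenly along the genome. The gap to the next common region on a chromosome had a median of 588 kb, with quartiles at 105 and 2364 kb, and was at most 10 kb for 80 of 1168 neighbouring pairs. Joining neighbours at most 100 kb apart left 711 regions alone and put 480 (40.3%) into 194 runs of 2 to 8 regions. Counting regions of every kind as neighbours, the nearest one to a common region was a median of 4565 bp away, against 9014 bp over all merged regions. It was 4731 bp for the regions of RB knockdown and growing alone and 7896 bp for those of RB knockdown and quiescent alone.

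The run with most members held 8 regions over 180 kb on chromosome X, from 153228611 to 153408972. Their tags ran from 29 to 271 in RB knockdown, from 30 to 221 in quiescent and from 20 to 105 in growing cells, and the closest pair was 19 bp apart. Next came 7 regions over 343 kb on chromosome 17, from 7077640 to 7420722, with 1251 tags in RB knockdown, 944 in quiescent and 744 in growing cells in all. The third run, of 6 regions over 156 kb, was also on chromosome 17, from 45488943 to 45644444. It was the heaviest of the 3, with 2506 tags in RB knockdown, 2256 in quiescent and 1834 in growing cells. Within it the region from 45611878 to 45625875 had 912, 832 and 913 tags in these states, and its neighbour from 45626068 to 45634962, 192 bp further on, had 742, 567 and 257. The growing peaks covered 13998 bp of the first and 4354 bp of the second, and their growing densities were 2.88 and 2.61, so the difference in growing tags went with peak width. A run of 6 regions on chromosome 21 was slightly longer, at 163 kb.

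By chromosome, the share of merged regions that were common was highest on chromosome 19, at 5.02% (4.07% to 6.13%, 92 of 1831), and on chromosome 17, at 4.72% (3.92% to 5.63%, 117 of 2477). Chromosome 16 followed with 3.56% (2.75% to 4.52%) and chromosome 9 with 3.01% (2.36% to 3.78%). It was lowest on chromosome 18, at 0.783% (0.359% to 1.48%, 9 of 1149). Common regions numbered 1.49 per Mb on chromosome 17 and 1.44 on chromosome 19, against 0.395 over all chromosomes. An FDR of 5% in all 3 lists was met by 118 regions, or 9.91% of the set. These included 18 of the 92 common regions on chromosome 19 and 16 of the 117 on chromosome 17. Both chromosomes are known as gene-rich, and the part of this in their shares was not tested. The last 10% of the spanned length of the chromosomes held 17.5% (15.4% to 19.8%) of common regions, against 12.4% (12.1% to 12.6%) of all merged regions, and the first 10% held 12.01% of common and 10.5% of all regions.

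**Figure D5:**
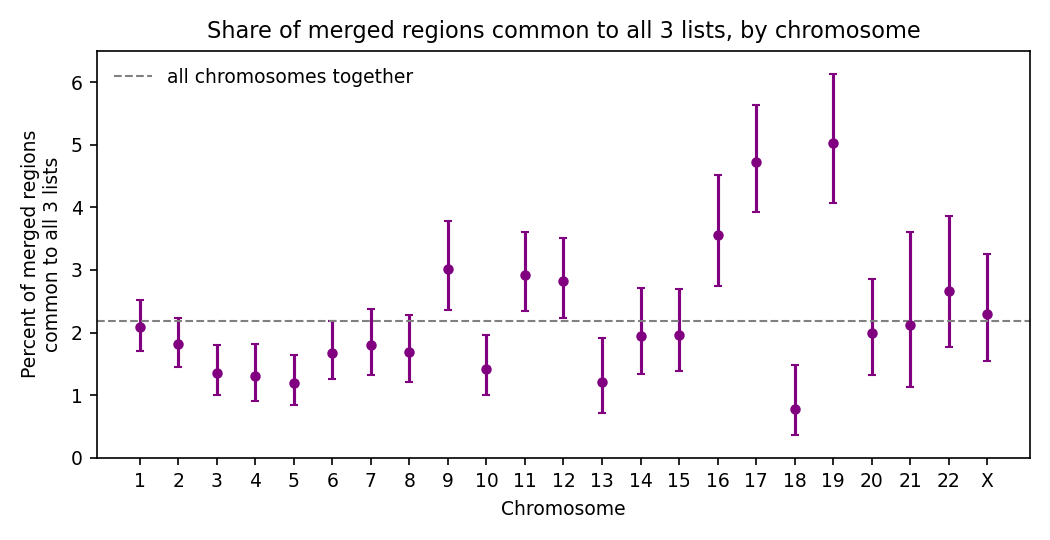
Percent of merged regions that were common to all 3 lists (vertical axis) on each chromosome, with 95% exact binomial intervals as bars and the value over all chromosomes, 2.18%, as a dashed line. Chromosomes 19 (5.02%) and 17 (4.72%) stand highest and chromosome 18 (0.783%) lowest.

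Within 100 kb of position 1 of a chromosome there were 2 common regions, which were picked after their values had been seen. One began at position 5 of chromosome 9 and ended at 728, with 23 tags in RB knockdown (14.6 to 34.5), 23 in quiescent (14.6 to 34.5) and 18 in growing cells (10.7 to 28.4). The other, on chromosome 16 at 65643 to 67513, had 81, 79 and 66 tags in these states. Neither met an FDR of at most 5% outside the RB knockdown list, where the values were 0.44% and 0.18%.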

How the data were processed

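The labels list 6 samples, and the E2F7 ChIP-seq peak lists of 3 were used. The submitters' processing notes name Bowtie and hg18. MACS 1.4.1 was run by the authors once per library, per the file headers, with the same control each time, whose label is not given there, at a p cutoff of 1e-05, with at most 2 tags per position. Per the file headers each peak carries a count of tags, a fold enrichment (a ratio to local background), a score of -10*log10 p, an FDR in percent, and a width and summit in bp. Summit position was the start plus the deposited summit distance. These are the authors' deposited values. Regions, distances and densities were computed from them with Python 3.11.15 and pandas 2.3.3, and merging was tested on simulated data. States were not tested against each other, as each has 1 library, and peaks of 1 library are not replicates. Chromosome length was taken as the largest peak end. Intervals are exact binomial, Wilson or exact Poisson and cover counting error only.

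The members and the naming rules were chosen with earlier results of these data known. Regions were named by smallest summit spread, highest lowest fold enrichment, density ratio, length, number of peaks, runs of neighbours and closeness to the edge of the rule. Alternatives were stricter peak thresholds, lists of equal length (9466 peaks), stricter overlap, the main peak alone and, chosen after seeing the data, tags not divided by peak width. No annotation or genome of hg18 was used here, so no gene and no sequence is given.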

Additional observations from a re-analysis of the deposited data

How the results depend on the processing

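Stricter peaks left fewer regions, longer in the median under the p and FDR limits and shorter under the fold limit. The number of common regions was 347 for peaks with a -10*log10 p of 100 or more, 121 for an FDR of 5% or less and 49 for 10-fold enrichment or more, against 1191 with all peaks. In the same order of settings median length was 2392, 3155 and 1787 bp, and median spacing 2246, 6042 and 21333 kb. Lists cut to 9466 peaks and a reciprocal overlap of at least 50% gave a median length of 2057 and 1766 bp and a median spacing of 826 and 909.6 kb. The median summit spread was 188 bp at that FDR, 84 bp at that fold enrichment, 193 bp with equal lists and 183 bp with reciprocal overlap, and the share within 200 bp was 50.4%, 73.5%, 50.6% and 52.6%.

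The median density ratio stayed above 1 for every pair of lists under every alternative run. RB knockdown over growing was 1.63 with the p limit, 1.62 with the FDR limit, 1.77 with the fold limit, 1.74 with equal lists, 1.64 with reciprocal overlap and 1.62 with the main peaks alone. RB knockdown over quiescent was 1.48 at that FDR and 1.53 with equal lists. Quiescent over growing was 1.05 at that FDR, 1.15 at that fold enrichment and 1.12 with equal lists. With no division by peak width, chosen after seeing the data, the ratios were 1.401 for RB knockdown over growing, 1.12 for RB knockdown over quiescent and 1.23 for quiescent over growing. Leaving out the regions with no base in all 3 lists moved no value beyond its interval. Each stricter threshold leaves fewer peaks, and why the values moved was not tested. No paired analysis was possible because each state has 1 library, and no replicate could be left out. An FDR of 5% was met by 1.83% of peaks in the whole growing list and by the main growing peak in 12.01% of common regions. Many growing calls in the set are thus doubtful.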
